A study of Rattus norvegicus with 12 samples.

Results

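The transcripts described here encode the subunits of the mitochondrial respiratory chain and of the ATP synthase, together with a few of their assembly and regulatory factors. Clones were taken by gene symbol from the array's annotation (symbols beginning NDUFA, NDUFB, NDUFC, NDUFS, NDUFV, SDHA to SDHD, UQCR, COX4 to COX8 and ATP5). They were 100 of the 9600 spots and stood for 68 of the 6284 named genes. Complex I had 38 clones of 31 genes, complex II 7 clones of 2 genes, complex III 11 clones of 7 genes, complex IV 12 clones of 9 genes, the ATP synthase (complex V) 22 clones of 13 genes, and the factors 10 clones of 6 genes. The factors were NDUFAF1, NDUFAF3, NDUFAF5 and NDUFAF7, which help to assemble complex I, COX7A2L, which takes part in joining complexes into supercomplexes, and ATP5IF1, the inhibitor of the ATP synthase.

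Complexes I, III and IV pass electrons from nutrients to oxygen and pump protons across the inner mitochondrial membrane, complex II feeds electrons in from succinate without pumping, and the ATP synthase uses the proton gradient to make ATP. Neurons depend heavily on this ATP to restore ion gradients after firing. The subunits named here are encoded in the nucleus, and the mitochondrial genome encodes further core subunits that are outside the rule.

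Hippocampal cells of Sprague Dawley rat embryos (embryonic day 18.5) were cultured for 12 days on a glial feeder layer, and total RNA of each sample was pooled from 3 coverslips per the labels, while the methods describe RNA combined over experiments. All cultures were held for 3 h in Block, a cocktail of the sodium channel blocker TTX (100 nM) and of the glutamate receptor antagonists APV (50 µM) and CNQX (40 µM). They were then stimulated with 50 µM bicuculline and 500 µM 4-aminopyridine (BiC/4AP), or kept in Block, each without or with 25 µM actinomycin D (ActD), a transcription inhibitor. Times of 5, 30 and 60 min gave 12 conditions with 1 array each. The methods describe a stimulus of 5 min at every time, so 30 and 60 min may count the time after it. The 6 Block and the 6 BiC/4AP arrays therefore differ among themselves in time and ActD, and no condition was repeated. RNA was hybridized to human cDNA clones, so cross-hybridization between related genes, such as the COX7A isoforms, cannot be told apart from signal of the named gene.

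Of 14 neuron marker genes 8 were on the array, with 7 of their 9 clones above the lowest 25% of named spots, and 6 of 8 astrocyte marker clones were above it as well. Median raw intensity ran from 24.53 to 69.755 units over the arrays. The median correlation of an array with the others, over all spots, was 0.913 for the 30 min BiC/4AP array and 0.926 to 0.950 for the rest. Among the 100 clones, 91 lay above the 95th percentile of blank positions on all 12 arrays and 79 lay above the lowest 25% of named spots. The other 21 are called dim here.

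Rat promoters (RefSeq, GRCr8, 250 bases before to 50 after the gene's start) were held for 61 of the 68 genes. They were searched on both strands for 3 motifs linked with nuclear genes of mitochondria, because shared sequence is what the gene rule did not use. The ETS motif CCGGAAG, bound by GABP (also called nuclear respiratory factor NRF-2), was in 19 of 61 promoters (31.1%), against 10.7% of 21842 promoters of protein-coding genes. The YY1 motif AAGATGGC was in 13 of 61 (21.3%), against 3.68%, and the NRF1 motif GCATGCGC in 6 of 61 (9.84%), against 3.11%. At least 1 of the 3 was in 28 of 61 (45.9%), against 16.1%. A match of letters is a description and not a binding site. Windows of 30 bases are printed for some of the genes whose values are followed below. They run 5′ to 3′ on the gene's strand with the motif, or its reverse complement, in capitals. Other genes followed below also had a match, among them SDHD and ATP5MK (ETS) and NDUFS4 (YY1), and COX8A had a YY1 match besides. NDUFB11, COX7B, COX7A1 and SDHA were not among the genes with a match. Promoters were missing for 7 of the 68 genes and were held for 7 of the 9 complex IV genes. A gene without a match may therefore not have been searched. The window of COX5B lies at chr9:46417811-46417840 (+), that of COX4I1 at chr19:65630374-65630403 (+), that of COX8A at chr1:213833663-213833692 (-) and that of UQCRQ at chr10:38089983-38090012 (-), all with the ETS motif. The windows of NDUFA3 at chr1:74515524-74515553 (-) and of ATP5MF at chr12:14535455-14535484 (+) carry the YY1 motif. It starts there at positions 16 and 36 from the gene's start, downstream of it.
COX5B: ctctgtctgttcCCGGAAGtgcatctgctt
COX4I1: caccgtcttgctCTTCCGGtgcgggacccg
COX8A: atttccgaaataCTTCCGGgctgaggcgtc
UQCRQ: cttccgctcctcCCGGAAGtgacgtgcaaa
NDUFA3: tgtccaagaccAAGATGGCtgctagtaagt
ATP5MF: cggacaacaggacttcAAGATGGCgtctat

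Levels below are log2 intensities standardized within each array, so a difference reads as a log2 change relative to the mean spot. The first question was whether activity altered these transcripts. With limma over all 12 arrays, 0 of the 100 clones passed an adjusted p of 0.05 for BiC/4AP against Block over all times, and 0% of all spots did. At an unadjusted p under 0.05, 0 clones were higher and 4 were lower, against 4.67% of all spots in either direction. The 4 were UQCRH clone 3, which encodes a hinge protein of complex III (-0.42 ± 0.16, SE, 5 of 6 pairs of arrays), UQCRC1, a complex III core protein whose spot lay above the 95th percentile of blank positions on only 1 of 12 arrays, ATP5F1E clone 2 (-1.06 ± 0.45, 5 of 6) and ATP5F1C clone 1, the gamma subunit (-0.36 ± 0.16, 5 of 6). The adjusted p of these was 0.781 in limma, the smallest among the 100 clones. For ATP5F1E clone 2 the 5 min pair with ActD had -4.47, and its other pairs ran from -0.77 to 0.05. That pair holds a reading of 1.5, below the 95th percentile of blank positions on its array. The median difference was -0.06 over the 100 clones, of which 40 were above 0, and -0.01 over the 8496 named spots. By complex the medians were -0.05 for complex I, 0.10 for complex II, -0.07 for complex III, -0.03 for complex IV and -0.07 for the ATP synthase.

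Taken by time, 0 clones and 0% of all spots passed at 5, at 30 and at 60 min. Unadjusted, 8 clones had p under 0.05 at 5 min (6 higher, 2 lower), against 4.8% of spots. At 30 min there were 16 (5 higher, 11 lower), against 9.89%, and at 60 min 4 (1 higher, 3 lower), against 5.01%. The smallest adjusted p among the clones was 0.972 at 5 min, 0.45 at 30 min and 0.92 at 60 min. The change of the activity difference from 5 to 30 min or from 30 to 60 min passed for 0 clones and 0% of spots. Without the 30 min BiC/4AP + ActD array 8 clones passed for each of these changes, among 431 spots (4.49%) and 374 spots (3.9%). COX5B, UQCRQ, SDHA clone 2, SDHD clone 2 and the dim clone NDUFA12 (-3.66 and 2.93) passed in both. Without the 5 min BiC/4AP array ATP5F1E clone 2 passed for the first change, 1 of 2 spots (0.0208%). With all arrays the result of 0 clones and 0% held also for the interaction of activity with ActD, where 3 clones had an unadjusted p under 0.05 against 2.58% of spots.

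**Figure D1:**
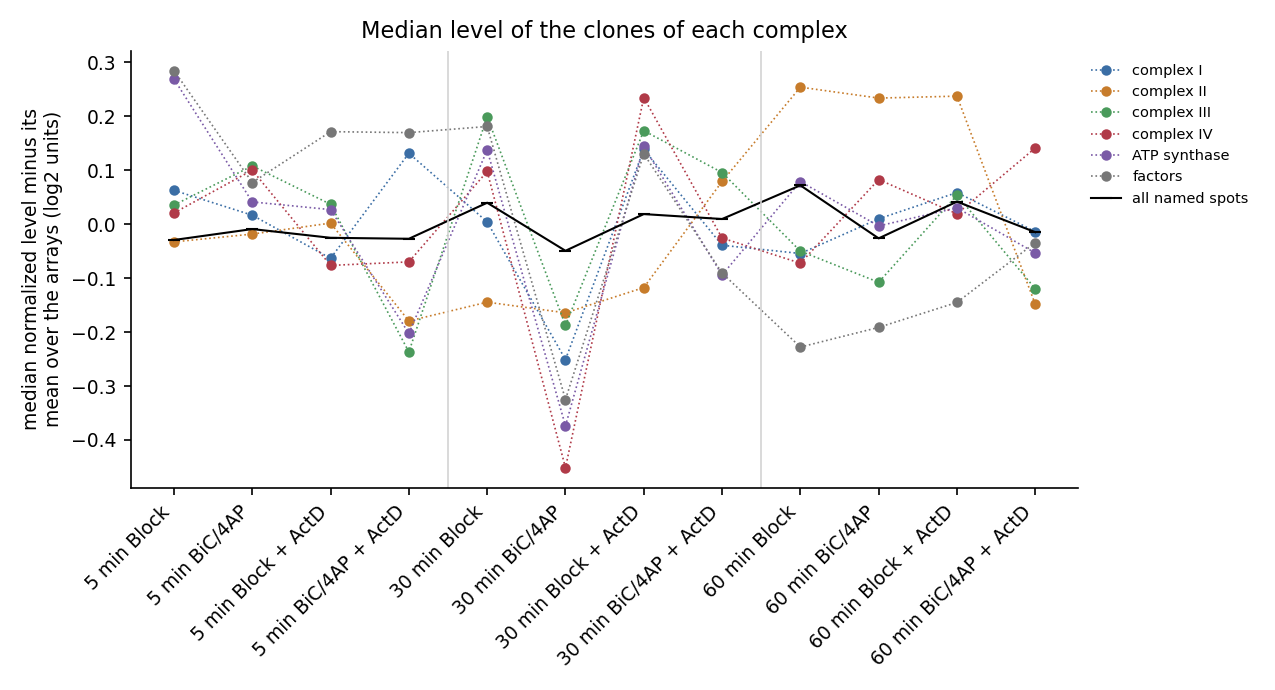
Median normalized level of the clones of each complex on each of the 12 arrays (vertical axis, log2 units, relative to the median's own mean over the arrays), with all named spots in black. The lowest points of complexes I, IV, V and the factors are those of the 30 min BiC/4AP array, where complex IV lay at -0.45 and all named spots at -0.05.

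At 30 min the complexes differed in their medians. Complex IV had a median difference of -0.30 with activity and 11 of 12 clones below 0, the ATP synthase -0.22 with 15 of 22 below 0, and the factors -0.22 with 8 of 10 below 0. Complex I had -0.06, complex III 0.05 and complex II 0.14, with 6 of its 7 clones above 0. The median was -0.12 over all 100 clones and -0.01 over named spots. Without ActD the complex IV median was -0.53 with 11 of 12 clones below 0, and with ActD it was -0.00 with 6 of 12 below 0. Without the 30 min BiC/4AP array the complex IV median was 0.12 with 7 of 12 clones above 0, and that of all 100 clones was 0.02. The low values of complex IV at 30 min therefore stood on 1 array. The other medians moved too when 1 of the 4 arrays of 30 min was left out. The ATP synthase ran from -0.40 to -0.05 and the factors from -0.31 to -0.08, both nearest to 0 without the BiC/4AP array. Complex I ran from -0.22 to 0.03, complex III from -0.13 to 0.16, and complex II from 0.0025, with 4 of 7 clones above 0, to 0.32.

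Among the cell type markers, that array was lowest of all arrays for neurons and microglia and not for the other types. Its median over the 9 neuron marker clones was -0.57 on the normalized scale, against -0.22 to 0.19 on the other 11 arrays. Their summed raw intensity there was 393 units, against 443 to 815 on the other arrays of 30 min. Over all times the sums ran from 343 to 849 on Block and from 376 to 821 on BiC/4AP arrays, with both low ends at 5 min. The 4 microglia marker clones had a median of -0.07 there, against 0.20 to 0.73 elsewhere. The 8 astrocyte clones had -0.016 (-0.57 to 0.13 elsewhere), the 6 oligodendrocyte clones -0.0035 (-0.35 to 0.27) and the 3 clones of fibroblasts and vessels -0.83 (-1.13 to -0.34). No marker was at 0, since the lowest intensity of any spot was 0.01. The activity difference at 30 min had a median of -0.40 over 164 cytosolic ribosomal protein clones, -0.13 over 56 proteasome clones and -0.03 over 67 mitochondrial ribosomal protein clones. The part of these shifts in the complex IV values was not tested. In bulk samples fewer cells of a type and less RNA per cell cannot be told apart. Both 30 min BiC/4AP arrays have higher array numbers than both 30 min Block arrays, and the same holds at 60 min. At these times activity and array order cannot be told apart.

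Leaving out the 30 min BiC/4AP + ActD array changed the calls. The 30 min comparison then set the BiC/4AP array alone against both Block arrays, and 18 clones passed (5 higher, 13 lower) among 1162 spots, 12.1% of all. The lone array is there assumed to vary like the others. Among the 18 were COX5B (-1.98 ± 0.21), COX7B (-1.63 ± 0.32) and COX8A (-0.98 ± 0.26) of complex IV, UQCRQ of complex III (-1.98 ± 0.28) and 4 clones of the ATP synthase that were lower, while SDHA clone 2 (1.91 ± 0.20) and SDHD clone 2 (1.12 ± 0.23) of complex II were higher. Leaving out any other array gave 0 clones at 30 min.

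**Figure D2:**
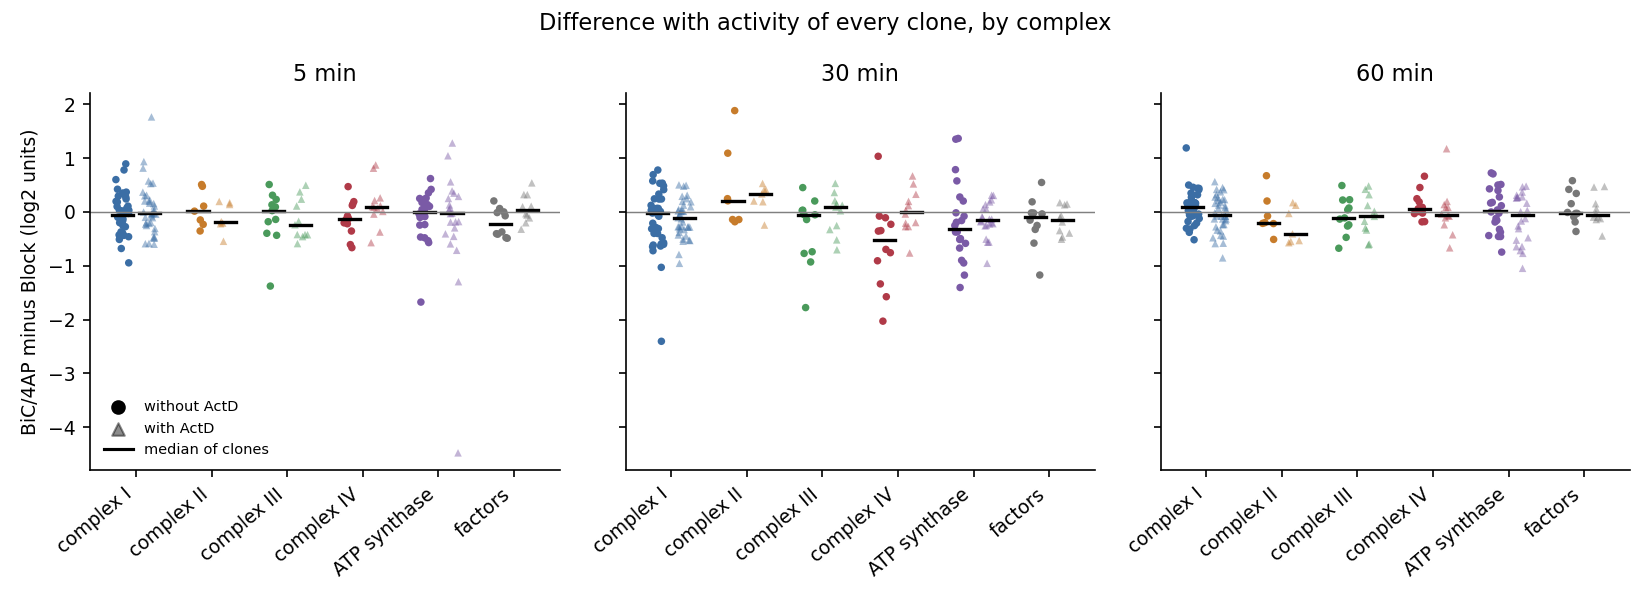
Difference between BiC/4AP and Block arrays (vertical axis, log2 units) for every clone, by complex and time, without ActD (circles) and with ActD (triangles); black bars are medians of clones. At 30 min the complex IV circles lie below 0 for 11 of 12 clones and the triangles for 6 of 12.

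In complex IV, cytochrome c oxidase, COX5B encodes a nuclear subunit exposed to the matrix. Its raw intensity at 30 min was 158.28 in Block, 29.38 in BiC/4AP, 92.82 in Block + ActD and 168.01 in BiC/4AP + ActD. The low value was on the BiC/4AP array only, and with ActD the order was turned. COX7B had 62.51, 19.24, 61.41 and 66.94 in the same order of arrays, and COX8A had 104.9, 42.92, 69.68 and 109.99. COX4I1, the ubiquitous form of subunit 4, was low with activity in both pairs. Its clone 1 read 108.39 in Block and 51.32 in BiC/4AP without ActD, and 78.92 and 57.81 with it. The difference was -0.73 ± 0.24 in limma (adjusted p = 0.45), with -0.70 where ActD was absent and -0.76 where it was present. COX4I1 clone 2 had -0.31 in that comparison. COX6B1 clone 1 had -0.89 ± 0.32, where its 30 min Block array read 102.27 and the other 3 25.84 to 27.81. Its clone 2 read 66.44 to 92.9 on the same 4 arrays.

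COX7A1, the muscle form of subunit 7A, was the 1 clone of complex IV above 0 at 30 min. The comparisons of activity over all times, activity within a time, ActD and their interaction were pooled, without the changes between times. Among all clones above the lowest 25% COX7A1 had the smallest p of this pool, at 30 min. Its raw intensity was 36.58 in Block, 31.37 in BiC/4AP, 29.26 in Block + ActD and 27.86 in BiC/4AP + ActD at 5 min. At 30 min the same conditions gave 44.68, 72.05, 26.33 and 52.55, and at 60 min 61.45, 57.35, 61.7 and 70.31. The BiC/4AP arrays were above the Block arrays at 30 min in both pairs, and the groups overlapped at 5 and 60 min. The difference at 30 min was 0.85 ± 0.22 (unadjusted p = 0.0022 and adjusted p = 0.45 in limma). COX6A1 was the highest clone of complex IV at 60 min (0.81 ± 0.24, adjusted p = 0.92), where the array with BiC/4AP and ActD read 124.14 and the other 3 52.78 to 76.11.

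**Figure D3:**
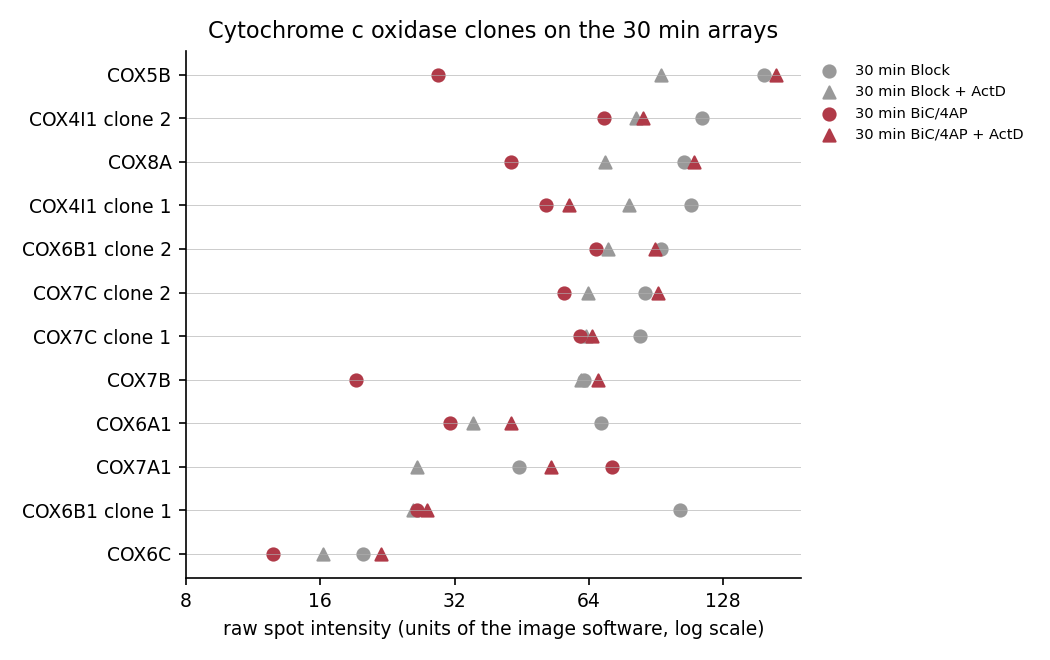
Raw spot intensity (horizontal axis, log scale) of the 12 cytochrome c oxidase clones on the 4 arrays of 30 min. COX5B, COX8A and COX7B read 29.38, 42.92 and 19.24 on the BiC/4AP array without ActD, below the other 3 arrays, and COX7A1 read 72.05, above them.

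In complex II, which is at once an enzyme of the citric acid cycle, SDHD encodes a membrane anchor and was the gene with the most clones, 5. Clone 2 read 319.3 in Block, 508.07 in BiC/4AP, 175.51 in Block + ActD and 295.16 in BiC/4AP + ActD at 30 min. BiC/4AP was higher in both pairs, with a difference of 0.75 ± 0.25 (adjusted p = 0.45 in limma). The other clones above the lowest 25% had -0.02 (clone 1) and 0.39 (clone 4). Against 5 min, clone 2 was 0.85 ± 0.21 higher at 30 min (adjusted p = 0.0909), whereas clone 1 had -0.03 and clone 4 0.26. The SD over arrays of the difference between a pair of SDHD clones ran from 0.23 (clones 4 and 5) to 0.67 (clones 1 and 2). SDHA, the flavoprotein that binds succinate, had a clone 2 at 188.61 in Block and 527.38 in BiC/4AP at 30 min without ActD, and at 106.12 and 153.72 with ActD. Its difference was 1.04 ± 0.36 (adjusted p = 0.45). At 60 min SDHA clone 1 had -0.54 ± 0.21 and clone 2 -0.31.

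**Figure D4:**
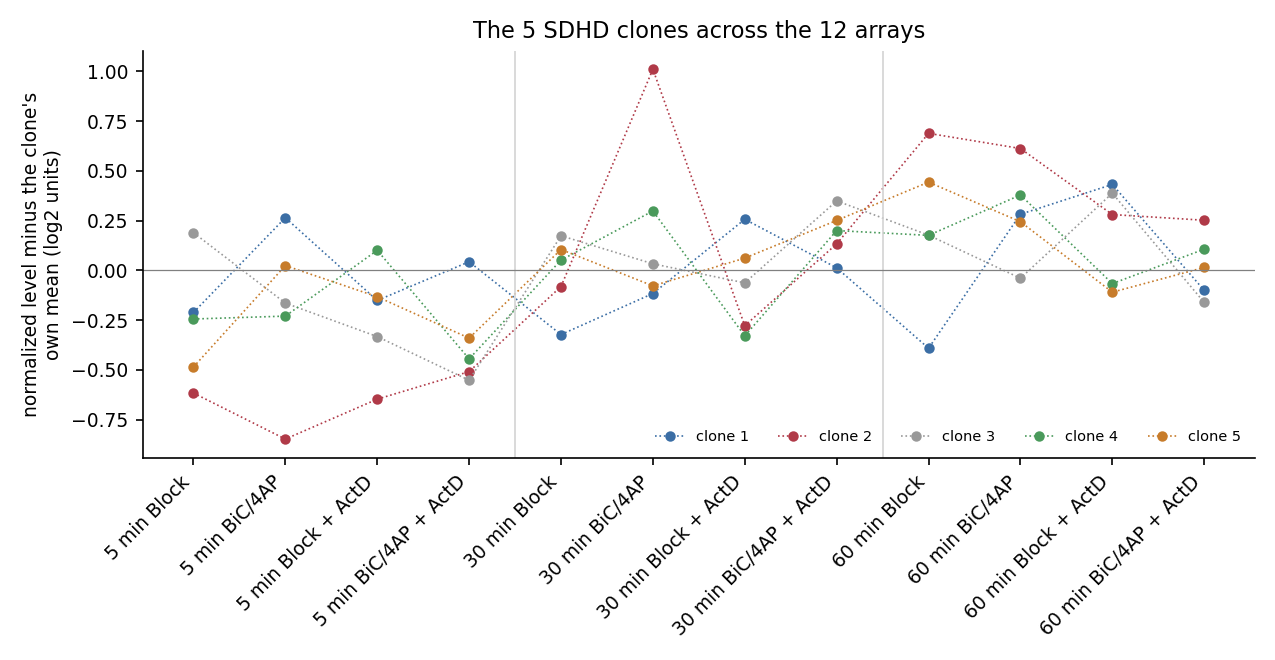
Normalized level of the 5 SDHD clones on the 12 arrays (vertical axis, log2 units, relative to each clone's own mean). Clone 2 lies lowest of the clones on 3 of the 4 arrays of 5 min and is the highest point of the plot on the 30 min BiC/4AP array. Against the 30 min Block array that array was 1.09 higher for clone 2, 0.25 for clone 4 and 0.21 for clone 1. Clones 3 and 5 were lower there (-0.14 and -0.18).

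In complex III, UQCRQ, a small subunit of the cytochrome bc1 complex, had the largest negative difference at 30 min. Its raw intensity was 96.51 in Block and 21.63 in BiC/4AP without ActD, and 67.69 and 58.83 with ActD. The difference was -1.15 ± 0.38 (adjusted p = 0.45), and 0.35 ± 0.38 at 60 min. UQCR11 clone 1 had 0.50 ± 0.20 at 5 min, while clone 2, a second spot with the same clone accession, had -0.22. The core protein UQCRC2 was higher with activity in 6 of 6 pairs for clone 1 (0.20 ± 0.11, adjusted p = 0.781), and its clone 2 had 0.02.

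In the ATP synthase, ATP5F1E encodes the epsilon subunit of the catalytic head. Clone 2 read 43.18 in Block, 27.18 in BiC/4AP, 39.99 in Block + ActD and 1.5 in BiC/4AP + ActD at 5 min. The last value lay below the 95th percentile of that array's blank spots, which was 10. The other 8 arrays ran from 30.33 to 64.44. The difference at 5 min was -2.52 ± 0.71 (unadjusted p = 0.0036, adjusted p = 0.972 in limma), and -0.67 without the BiC/4AP + ActD array. Without the BiC/4AP array it was -4.37 ± 0.31 and passed (adjusted p = 0.000108), a comparison that rests on the value of 1.5. Clone 1 of ATP5F1E was dim. ATP5MK, a small subunit of the membrane part, read 93.66 in Block and 27.22 in BiC/4AP at 30 min, and 70.65 and 59.55 with ActD. Its difference was -0.98 ± 0.29 (adjusted p = 0.45). The subunits ATP5MG (-0.58 ± 0.24) and ATP5ME (-0.53 ± 0.24) and ATP5F1C clone 1 (-0.67 ± 0.27) also had unadjusted p under 0.05 in that direction. ATP5PB, the b subunit of the stalk, had clones at 0.35, -0.44 and -0.10. ATP5MC1, a c subunit of the rotor ring, had 0.61 ± 0.24 at 5 min (adjusted p = 0.972).

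In complex I, which takes electrons from NADH, the clones lay on both sides of 0 at each time. NDUFA7 had 0.57 ± 0.21 at 5 min, and at 60 min NDUFA9 clone 2 had -0.55 ± 0.21 while clone 1 had -0.23. At 30 min NDUFB10 clone 1 had 0.63 ± 0.22 and clone 2 0.27, whereas NDUFV3, an accessory subunit of the NADH-binding part, had -0.63 ± 0.22. The adjusted p of NDUFV3 was 0.45, and it had 0.58 ± 0.22 in the opposite direction at 5 min. The change between these times was -1.22 ± 0.31 (unadjusted p = 0.0020, adjusted p = 0.49 in limma). It read 21.67, 25.73, 20.62 and 33.44 at 5 min and 38.7, 21.9, 32.01 and 22.9 at 30 min, in the order Block, BiC/4AP, Block + ActD, BiC/4AP + ActD, so BiC/4AP was higher in both pairs at 5 min and lower in both at 30 min. NDUFA12, an accessory subunit, was the only member to pass the z-fold rule of the study. A z-fold scales the difference between an activity array and its Block partner by the SD of such differences over all spots, and the rule asks for a size above 1.4 with the same sign in the pair lacking ActD and the pair holding it. NDUFA12 had -3.56 without and -1.83 with ActD at 30 min. It is a dim clone that read 47.26 in Block, 6.99 in BiC/4AP, 34.87 in Block + ActD and 22.22 in BiC/4AP + ActD. The value of 6.99 lay below the 95th percentile of that array's blank spots, 17.6, so -3.56 rests on a reading at background. With it, 1 of 100 clones passed downward at 30 min, against 0.448% of all spots, and 0 passed upward, against 0.771%. At 5 min 0 clones passed upward and 0 downward, against 0.573% and 0.625% of spots. At 60 min 0 passed either way, against 1% upward and 0.604% downward. Z-folds of single arrays carry no test.

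Among the factors, ATP5IF1 had 3 clones that did not share a direction at 30 min (-0.24, 0.34 and -0.62). Clones of the same gene often differed in sign. Of the 19 genes with at least 2 clones above the lowest 25%, all clones lay on the same side of 0 in 10 genes at 5 min and in 11 at 30 min and at 60 min. The median spread between the clones of a gene at 30 min was 0.355.

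The next question was what remained when transcription was blocked. For ActD over all times 0 clones and 0% of spots passed, and 2 clones, both higher, had an unadjusted p under 0.05, against 2.34% of spots. The median was 0.04 with 65 of 100 clones above 0, against -0.00 over named spots with 49.2% above 0. Complex I had 26 of 38 clones above 0, complex IV 9 of 12, complex III 8 of 11, the ATP synthase 12 of 22 and the factors 9 of 10, while complex II had 1 of 7. The count of 65 clones rested on the arrays of 30 min. The Block pair of 30 min alone had 65 of 100 clones above 0. Without the 30 min BiC/4AP array 50 clones were above 0 and 50 below, and without all 30 min arrays 47 were above 0. Only the pairs of 30 min leaned upward, with medians of 0.14 in Block and 0.23 in BiC/4AP, and the other 4 pairs had medians from -0.07 to 0.02. At 5 min both ActD arrays (81 and 82) have lower numbers than both arrays without it (83 and 84). ActD and array order cannot be told apart at that time. The 2 clones with an unadjusted p under 0.05 were both of complex I. NDUFS4, an accessory subunit that complex I needs for stable assembly, read 36.72, 56.38 and 62.75 in Block at 5, 30 and 60 min and 28.43, 41.57 and 81.38 in Block + ActD. In BiC/4AP it read 17.72, 26.7 and 55.22, and 24.59, 59.32 and 65.33 with ActD. The raw ranges overlapped, and the normalized value was higher with ActD in 5 of 6 pairs. NDUFC2 was dim at 10.78 to 51.59 units. COX7C clone 2 was higher with ActD in 6 of 6 pairs (0.18 ± 0.12, adjusted p = 0.985), and clone 1 had 0.07. SDHA clone 2 had -0.42 ± 0.24 and clone 1 -0.01.

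The times differed more. Arrays 81 to 84 held 5 min, 85 to 88 held 30 min and 89 to 92 held 60 min, so time and array order cannot be told apart. From 5 to 30 min 1 clone passed, against 0.406% of spots, and 16 had an unadjusted p under 0.05 (4 higher, 12 lower), against 15.2%. From 30 to 60 min 2 clones passed, both lower, against 3.15% of spots in either direction and 3.1% lower, and 9 had an unadjusted p under 0.05 (4 higher, 5 lower), against 14.8%. The median of the 100 clones was -0.03 from 5 to 30 min and 0.05 from 30 to 60 min, against 0.04 and 0.03 over named spots.

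NDUFA3 and NDUFB11, accessory subunits of the membrane arm of complex I, fell from 30 to 60 min. NDUFA3 read 1094.32, 1128.97, 1101.16 and 768.0 at 5 min, 1771.67, 1587.76, 1504.72 and 1748.96 at 30 min, and 448.85, 423.99, 265.94 and 269.78 at 60 min, in the order Block, BiC/4AP, Block + ActD, BiC/4AP + ActD. The 4 arrays of 60 min lay below all others. The difference was -2.50 ± 0.19 (adjusted p = 7.33e-07 in limma) and was negative in 4 of 4 pairs. NDUFB11 read 1003.65, 1119.21, 1375.64 and 879.48 at 5 min, 1517.91, 1180.84, 1308.68 and 1622.9 at 30 min, and 487.74, 376.4, 268.62 and 237.16 at 60 min. Its difference was -2.32 ± 0.21, and both passed whichever array was left out. They belonged to 298 spots that were lower at 60 min, 285 of them with a gene symbol, standing for 276 genes. Among the 383 spots with a median above 500 units, to which both clones belong, 72 (18.8%) were called lower. The median difference of the 298 spots was -1.07, and 4 of the 298 had a more negative difference than NDUFA3. No other clone of complex I, of its 38, passed there.

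Other bright clones of complex I took other courses. NDUFB10 clone 1 read 1132.88 to 1508.9 at 5 min, 1247.51 to 2809.78 at 30 min and 2597.09 to 3828.42 at 60 min, with a difference of 0.59 ± 0.19 from 30 to 60 min (adjusted p = 0.125). It was higher in 4 of 4 pairs. Without the 30 min BiC/4AP array its difference was 0.74 ± 0.15 and passed (adjusted p = 0.0035). NDUFB10 clone 2 was lower in 4 of 4 pairs, with -0.38 ± 0.17. NDUFB6 read 23601 to 30970 on all arrays, at 74.3% to 100% of the highest spot of its array, and was itself that highest spot on 2 arrays. A change upward could be compressed at such values, and this was not tested.

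**Figure D5:**
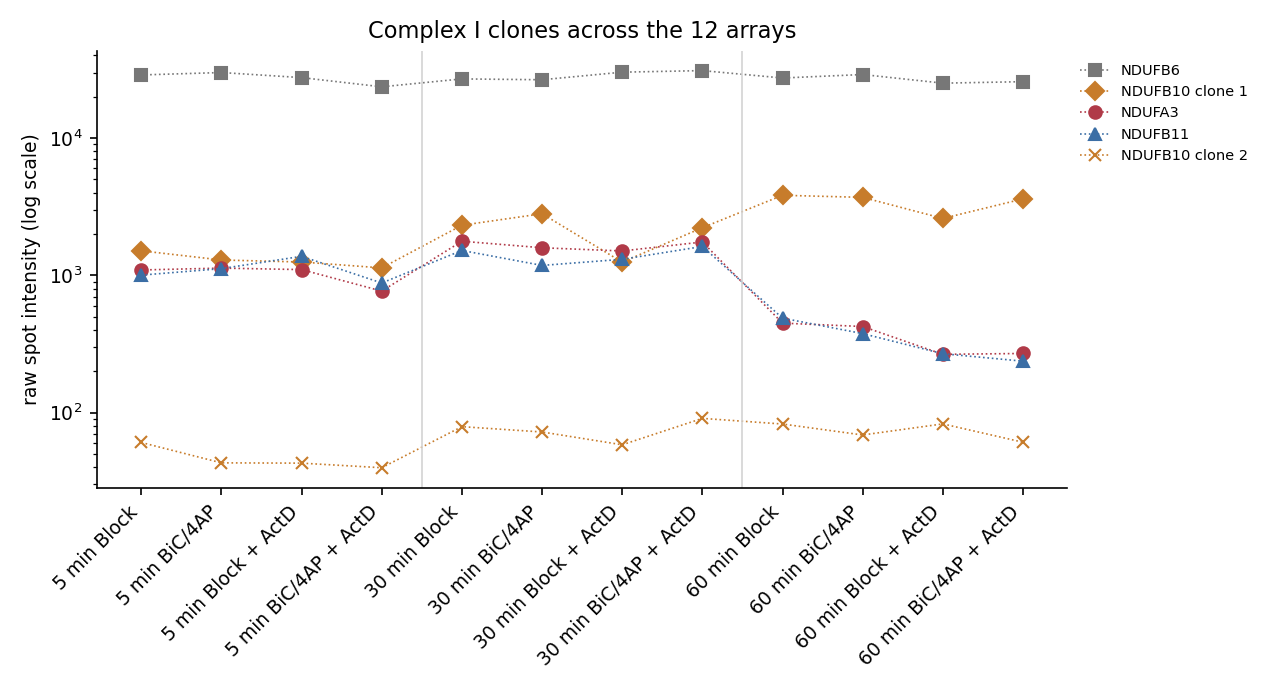
Raw spot intensity (vertical axis, log scale) of 5 complex I clones on the 12 arrays. NDUFA3 and NDUFB11 fall at 60 min. NDUFB10 clone 1 has its 60 min values of 2597.09 to 3828.42 above all its 5 min values. Its 60 min Block + ActD value, 2597.09, lies below its highest 30 min value, 2809.78, and its other 60 min values lie above it. NDUFB10 clone 2 does not follow clone 1, and NDUFB6 stays between 23601 and 30970.

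The clone that fell from 5 to 30 min was ATP5MF, the f subunit of the membrane part of the ATP synthase. It read 113.96, 113.49, 99.12 and 80.95 at 5 min and 113.34, 85.94, 61.93 and 85.34 at 30 min, so its raw values overlapped while the array medians were higher at 30 min. After normalization the difference was -0.91 ± 0.17 (adjusted p = 0.0248 in limma), lower in 4 of 4 pairs. The call was lost without any of the 4 arrays of 5 min or either 30 min array with ActD, where the difference ran from -0.99 to -0.87. It was also lost with block and position medians removed, where the difference was -0.40 (adjusted p = 0.322), under quantile normalization (-0.84, adjusted p = 0.0545) and without the eBayes trend (-0.91, adjusted p = 0.113). COX4I1 was lower at 30 min through both clones, clone 2 with -0.66 ± 0.15 in 4 of 4 pairs (adjusted p = 0.0865) and clone 1 with -0.57 ± 0.22 in 3 of 4. COX7A2L clone 2 had -0.58 ± 0.18 (adjusted p = 0.131), and clone 1 had -0.29.

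Other genes of the pathway were read in the same activity comparison at 30 min, where 4078 of 8496 named spots were above 0 and 9.89% of all spots had an unadjusted p under 0.05. Of 16 genes of the citric acid cycle and pyruvate entry 10 were on the array with 17 clones, of which 11 were below 0 (median -0.08), and 3 had an unadjusted p under 0.05, all lower. CS, citrate synthase, had -0.69 ± 0.21 (adjusted p = 0.45). Of 17 clones of mitochondrial carriers and pores 12 were below 0 (median -0.22), and a pair of clones of SLC25A3, the phosphate carrier, had -0.49 ± 0.21 and -0.48 ± 0.22. Of 18 clones of assembly factors outside the rule 11 were below 0 (median -0.17), with COX10, which makes heme for complex IV, at -0.72 ± 0.26. The 19 clones of electron carriers had a median of 0.02 with 12 above 0, and the 3 clones of biogenesis regulators 0.26 with 3 above 0. NRF1 and GABPB1, whose proteins bind motifs given above or belong to the factor that does, had 0.02 ± 0.22 and 0.26 ± 0.27. In the activity and ActD comparisons 0 clones of these lists passed.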

How the data were processed

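The deposited intensity values were raw spot readings that the authors took from phosphor screens with image analysis software after hybridizing 33P-labelled cDNA to nylon arrays; the series matrix held identical values (100%). No column of another sample was used. Of 9600 spots 8496 carried 1 gene symbol, joined through the first spot index. Log2 intensities were centred and divided by the SD of their array over all spots and multiplied by the mean SD, 1.7461. Comparisons were fitted over all spots in R 4.3.3 by limma 3.58.1 (linear fit and eBayes with trend; two-sided tests; Benjamini-Hochberg adjustment; threshold 0.05), adjusting for time and for the treatment not compared; residual degrees of freedom were 7, and 5 for activity within a time and 6 for the interaction. Since every sample has the same replicate number, the p-values reflect how far arrays of different times and treatments disagree. On simulated data for activity over all times (9600 spots, 200 changed by 1 log2 unit), 170 were recovered with 11 false calls. The simulated noise was independent for each spot and array, without shifts shared by the spots of an array. Comparisons within a time were not simulated. The members and gene lists were chosen with earlier results of these data known. Named clones were all that passed and, per complex and direction, the clone of smallest p above the lowest 25% of intensity; some others were chosen after their values were seen. The number of arrays limits the precision. Alternatives were other normalizations, filters, eBayes without trend, matched arrays as a block and leaving out arrays.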

Additional observations from a re-analysis of the deposited data

Results flagged for a closer look

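In 5 of 34 groups of arrays examined, the highest or lowest array lay far from the rest by Dixon's test. The test's chance rate of about 1 group in 20 does not apply to this count. The groups share arrays and clones, and COX7A1 and ATP5F1E clone 2 were followed for their small p in these same data. The 30 min BiC/4AP array was the low extreme among the 6 BiC/4AP arrays for the median level of complex IV (-0.068 on the normalized log2 scale) and for the median of all 100 clones (-0.33). For COX7A1 the same array was the high extreme (0.55). ATP5F1E clone 2 on the 5 min BiC/4AP + ActD array lay at -4.09, far below the other 5 min arrays and below the other BiC/4AP arrays.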

How the results depend on the processing

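All samples carry the same replicate number, so that number pairs no arrays. With matched arrays as a block (activity within pairs of the same time and ActD, ActD within pairs of the same time and activity, times within the same treatments), an alternative chosen after seeing the data, no call changed: 0 clones passed for activity and ActD, 1 from 5 to 30 min and 2 from 30 to 60 min. The smallest adjusted p for activity at 30 min was 0.248. Under settings that kept every array, or left out all 30 min arrays, 111 counts and medians stayed near the reported value and 17 did not. The count of clones that passed from 5 to 30 min, 1 (ATP5MF), became 0 under quantile normalization (difference -0.84), under removal of block and position medians (-0.40), and without the eBayes trend (-0.91), and 3 among bright named spots only. The median of the clones for activity at 30 min was -0.072 under median centring and -0.038 with block and position medians removed, and that at 60 min was 0.063 under median centring. Without NDUFB6, NDUFA3 and NDUFB11, an alternative chosen after seeing the data, the median at 30 min was -0.12. Under the z-fold rule at 5 min, 2 clones passed downward at a threshold of 1.0, and 1 upward and 3 downward among bright spots. At 30 min 1 passed upward and 4 downward at 1.0, 2 downward at 1.3, and 1 upward and 2 downward among bright spots. At 60 min 1 passed downward at 1.0 and 1 upward among bright spots.

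Leaving out 1 array gave 0 to 1 clones from 5 to 30 min, 0 to 18 for activity at 30 min and 0 to 1 at 5 min. The medians ran from -0.11 to 0.012 at 5 min and from -0.24 to 0.021 at 30 min.

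Single clones turned sign as follows. SDHD clone 2 over all times was -0.049 without the 30 min arrays. With block and position medians removed, UQCRB with ActD was 0.00027, NDUFA5 from 5 to 30 min 0.10, ATP5MF from 30 to 60 min 0.056, and at 5 min SDHD clone 4 was 0.077 and ATP5IF1 clone 1 -0.080. SDHA clone 2 from 30 to 60 min was 0.11 under quantile normalization and 0.018 among bright spots. SDHD clone 1 at 30 min was 0.037 under median centring, 0.027 under quantile normalization, 0.0068 with blanks subtracted and 0.10 among bright spots. With 1 array left out, ATP5MF over all times ran from -0.028 to 0.16, SDHA clone 2 from 30 to 60 min from -0.22 to 0.46, and at 5 min SDHD clone 4 from -0.56 to 0.028 and COX4I1 clone 1 from -0.014 to 0.74. At 30 min SDHD clone 1 ran from -0.27 to 0.23, UQCRC2 clone 2 from -0.13 to 0.52, ATP5PB clone 2 from -0.031 to 0.73 and ATP5IF1 clone 3 from -1.31 to 0.064, and at 60 min UQCRQ from -0.13 to 0.84 and COX7B from -0.77 to 0.11. The causes were not tested.

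The 21 dim clones limit what can be read of their genes, and 1 array for each condition limits all activity and ActD comparisons.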

Other observations

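Both spots with the same clone accession gave different signals for ATP5F1D, the delta subunit of the ATP synthase. The mean raw intensities were 9.82 and 70.7, and the SD over arrays of the difference between the spots was 0.67 log2 units. For UQCR11 the means were 67.8 and 47.1, with an SD of 0.52.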
